A study of Rattus norvegicus with 3 samples.

Results

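The genes described here encode 7 components of the desmosome, namely the plaque proteins Jup, Pkp2 and Pkp3, the cadherins Dsg3, Dsc2 and Dsc3, and the membrane protein Perp. They were chosen by name, with earlier results of these data known. All were found under those symbols in the platform annotation with 1 probe set each, and they make up 7 of the 15037 genes named on the array. The cells were FRSK, a rat keratinocyte line from fetal skin, grown in DMEM with 10% serum. RNA of 3 cultures was measured on Affymetrix whole-transcript arrays, with 1 array each for unstimulated cells (control), cells exposed for 24 h to 100 nM Met-enkephalin (Met-ENK), and cells exposed for 24 h to 100 nM β-END(1-9). The opioid pentapeptide Met-ENK has the residues with which β-endorphin starts, and its fragment β-END(1-9) runs a few residues further. The labels do not say whether the control received vehicle.

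Desmosomes join neighbouring epithelial cells and carry tension between their keratin networks. Desmogleins and desmocollins cross the membrane and bind those of the next cell, plakoglobin (Jup) and the plakophilins (Pkp) cap their cytoplasmic tails, and desmoplakin ties this plaque to keratin filaments. In epidermis, Dsg3 and Dsc3 are best known from the basal layers and are targets of pemphigus autoantibodies, and desmosomes are remodelled when keratinocytes differentiate or close a wound.

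With 1 array per condition there is no spread between cultures, so no difference below was tested and each is one between single arrays. Median log2 signals over 23188 transcript clusters were 5.93, 5.97 and 5.96 on the control, β-END(1-9) and Met-ENK arrays. All 7 measured basal keratinocyte markers, among them Krt14, Tp63 and Itga6, passed the expression filter, a mean log2 signal at or above 6.41, the median of all named genes. None of the 6 endothelial, 5 immune or 10 muscle markers did (0 of each list), while 2 of 8 fibroblast markers (Col1a1 and Col3a1) and 1 of 5 melanocyte markers (Mitf) passed. A signal is that of all cells on a dish, so fewer expressing cells and less RNA per cell cannot be told apart. Signals are compared between arrays for 1 gene at a time, since probe sets of different genes are not on a common scale.

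The data show 1 desmosome gene past 1.5-fold, Pkp3, which was lower on both peptide arrays than on the control array (-0.59 with Met-ENK and -0.68 with β-END(1-9), as log2 differences). Dsg3, Dsc3 and Perp were highest on the Met-ENK array and lowest on the β-END(1-9) array, with none of their differences reaching 1.5-fold. Pkp2 had the same order within a narrow range, Jup was nearly level, and Dsc2 was at background.

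**Figure D1:**
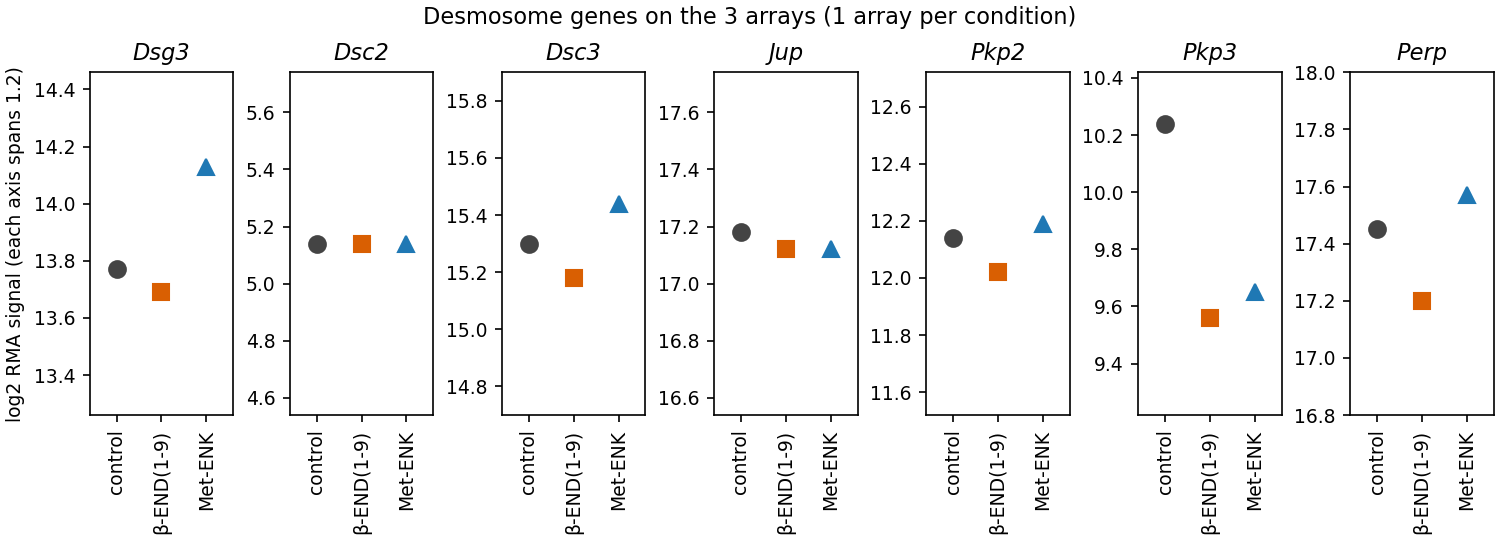
Each panel gives the log2 signal of 1 gene on the 3 arrays (circle, control; square, β-END(1-9); triangle, Met-ENK), with axes of equal length in log2 units but different positions. Pkp3 is high on the control array, at 10.24 against 9.56 and 9.65, whereas Dsg3, Dsc3, Pkp2 and Perp have their highest point on the Met-ENK array.

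Dsg3, Dsc3 and Perp had the widest differences between the peptide arrays, so their promoters are shown. Each sequence is the 250 bases before the start site in the RefSeq annotation of GRCr8, read 5′ to 3′ on the gene's own strand, and capitals mark every motif match found. Those of Dsg3 (chr18:12074071-12074320, plus strand), Dsc3 (chr18:11688872-11689121, minus strand) and Perp (chr1:15361534-15361783, plus strand) read as follows.
Dsg3: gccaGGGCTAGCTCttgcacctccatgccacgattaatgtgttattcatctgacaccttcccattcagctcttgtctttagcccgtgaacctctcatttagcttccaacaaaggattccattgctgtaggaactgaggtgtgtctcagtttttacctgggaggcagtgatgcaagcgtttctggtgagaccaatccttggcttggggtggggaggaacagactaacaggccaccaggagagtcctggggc
Dsc3: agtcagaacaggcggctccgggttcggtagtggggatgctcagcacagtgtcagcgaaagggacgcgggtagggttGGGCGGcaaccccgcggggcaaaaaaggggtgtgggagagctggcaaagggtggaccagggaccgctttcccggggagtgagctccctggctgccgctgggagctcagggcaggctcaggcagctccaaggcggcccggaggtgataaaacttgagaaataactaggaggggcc
Perp: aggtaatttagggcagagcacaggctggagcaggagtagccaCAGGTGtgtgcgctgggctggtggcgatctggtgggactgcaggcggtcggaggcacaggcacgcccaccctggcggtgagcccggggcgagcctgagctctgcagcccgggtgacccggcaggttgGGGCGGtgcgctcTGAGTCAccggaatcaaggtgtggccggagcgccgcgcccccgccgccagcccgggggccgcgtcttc
Motifs were searched on both strands, and no match in these windows overlapped another. The AP-1 motif TGANTCA was found in Perp, from -68 to -62 relative to the start site, and occurs in 6.34% of all 33469 promoters of that length. The GC box GGGCGG, in 30.5% of all promoters, was found in Dsc3 (-174 to -169) and Perp (-81 to -76). The Snail E-box CAGGTG, in 15.9%, was found in Perp (-208 to -203). The short p53 family motif RRRCWWGYYY, in 6.64%, was found in Dsg3 (-246 to -237). Its R stands for A or G, W for A or T and Y for C or T. The TATA box TATAAA and the grainyhead-like motif AACCGGTT, in 12.9% and 0.146% of all promoters, were not among the letters of these windows. The GC content was 51.6% for Dsg3, 64.4% for Dsc3 and 71.6% for Perp, against a median of 51.2% over all promoters. These matches are descriptions of sequence only, and 5 of the 7 genes had a promoter entry, Pkp2 and Pkp3 being the others. The promoters of Jup and Dsc2, not shown here, also held the GC box and the Snail E-box. These motifs are thus not particular to the genes shown.

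Among the cadherins, Dsg3 (probe set TC1800001119.rn.2), a desmoglein and the main antigen of pemphigus vulgaris, had a log2 signal of 13.77 in the control, 13.69 after β-END(1-9) and 14.13 after Met-ENK. The Met-ENK array stood above the other arrays, which lay close together. The difference between the peptides was 0.44, or 1.35-fold, and that between Met-ENK and control 0.36, or 1.28-fold. Among 7519 genes that passed the expression filter, 5.64% had a higher value in the first of these comparisons and 4.44% in the second. Against control, β-END(1-9) differed by -0.08, and this turned to 0.05 after a new quantile normalization.

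Dsc3 (probe set TC1800001085.rn.2), the desmocollin that pairs with desmogleins in basal keratinocytes, had 15.30 in the control, 15.18 after β-END(1-9) and 15.44 after Met-ENK. Control lay about midway between the peptide arrays. Dsc3 was 0.26 higher with Met-ENK than with β-END(1-9), 0.14 higher than control with Met-ENK and differed from control by -0.12 with β-END(1-9). The Met-ENK difference from control was the member value most open to scaling, at 0.32 after quantile normalization.

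Dsc2 (probe set TC1800001086.rn.2), the desmocollin found in nearly all desmosome-bearing tissues, was listed at 5.14 on each of the 3 arrays. The 23 background probe sets of the array ran from 2.51 to 7.57, so Dsc2 lay within their range, and it did not pass the expression filter. A signal at background does not show whether the transcript was present. Dsc2 and Dsc3 lie next to each other in the GRCr8 gene order, and the desmoglein that precedes Dsg3 there, Dsg4 of the hair follicle, was also at background, with 2.76, 2.87 and 2.76 on the control, β-END(1-9) and Met-ENK arrays. Cdh2, the N-cadherin gene that lies close to Dsc3 in that order, was listed at 3.18 on all arrays.

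Among the plaque proteins, Pkp3 (probe set TC0100002877.rn.2), a plakophilin found throughout the epidermis that binds most desmosomal cadherins, had a log2 signal of 10.24 in the control, 9.56 after β-END(1-9) and 9.65 after Met-ENK. The peptide arrays lay 0.09 apart, and both were well below the control array. Pkp3 was 1.6-fold lower with β-END(1-9) and 1.5-fold lower with Met-ENK. Both values rest on the same control array, so they are not separate measurements of a fall. With β-END(1-9), 1.32% of filter-passing genes had a lower value, and Pkp3 stayed past 1.5-fold under all 4 alternative treatments of the values, from -0.72 to -0.59. With Met-ENK, 5.92% of filter-passing genes had a lower value. Among the 3940 genes with a mean log2 signal from the filter limit to 10, 4.77% were past 1.5-fold from control after β-END(1-9) and 7.46% after Met-ENK. Pkp3, with a mean of 9.82, lies near the upper end of that range. From 10 to under 14 these shares were 0.818% and 5.53%. The Met-ENK difference, -0.588 before rounding against a limit of 0.585, held when arrays were centred on their medians (-0.61) but fell short after quantile normalization (-0.52), after cyclic loess (-0.56) and once the trend along genomic span was taken out (-0.51).

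The genes most like Pkp3 over the 3 arrays, by Euclidean distance between log2 signals centred on each gene's mean, were Eipr1 (distance 0.013), Ctsw (0.024) and Kiaa1328 (0.026). Eipr1 differed from control by -0.66 with β-END(1-9) and -0.58 with Met-ENK, Ctsw by -0.70 and -0.58, and Kiaa1328 by -0.65 and -0.55. Likeness here rests on 3 points per gene, and 28 of the 7519 filter-passing genes lay within a distance of 0.1 of Pkp3. The genes on either side of Pkp3 in the GRCr8 order did not share its difference, since B4galnt4 differed from control by -0.07 with β-END(1-9) and -0.03 with Met-ENK, and Sigirr by 0.17 and -0.03, both genes being at background level.

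Pkp2 (probe set TC1100002033.rn.2), the plakophilin of heart and of many epithelia, had 12.14 in the control, 12.02 after β-END(1-9) and 12.19 after Met-ENK. Its order of arrays was that of Dsc3, over a range of 0.17. It was 0.17 higher with Met-ENK than with β-END(1-9), a value exceeded by 23.2% of filter-passing genes.

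Jup (probe set TC1000003792.rn.2) encodes plakoglobin, which binds the tails of desmosomal and of classical cadherins. Its log2 signal was 17.18 on the control array and exactly equal, at 17.12, on the peptide arrays, a difference of -0.06 for each. Exactly equal values are common in these data, at 21.5% of filter-passing genes between the peptide arrays. The adherens junction catenin Ctnnb1, the closest relative of plakoglobin, had 16.63 in the control, 16.54 after β-END(1-9) and 16.63 after Met-ENK, and Cdh1, the classical cadherin that plakoglobin also binds, had 15.48, 15.42 and 15.79 in that order.

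Perp (probe set TC0100000146.rn.2), a tetraspan membrane protein needed for stable desmosomes and a known target of p53 and p63, had 17.45 in the control, 17.20 after β-END(1-9) and 17.57 after Met-ENK. The peptide arrays lay on either side of control. Perp was 0.37, or 1.29-fold, higher with Met-ENK than with β-END(1-9), which 8.39% of filter-passing genes exceeded. It differed from control by -0.25 with β-END(1-9) and by 0.12 with Met-ENK, and it kept these signs under all 4 alternatives.

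**Figure D2:**
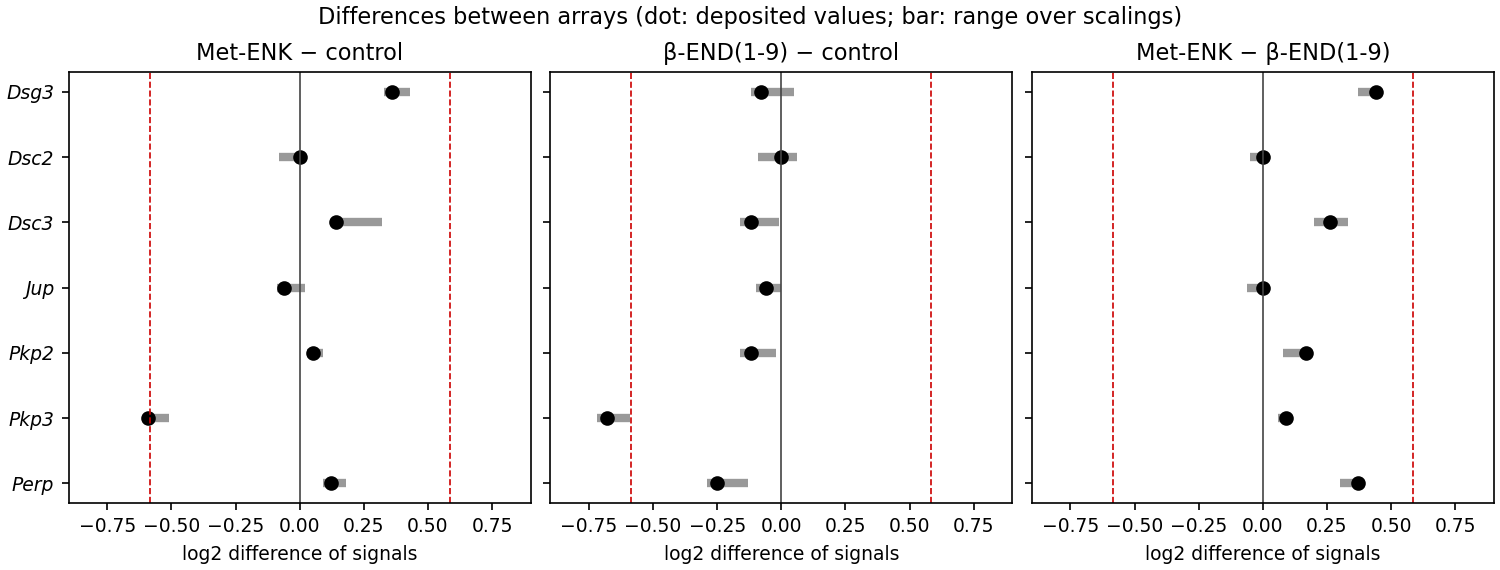
Log2 differences of the 7 genes in the 3 comparisons: dots give the deposited values, grey bars the range over these and 4 alternatives (3 scalings between arrays and removal of the trend along genomic span), and dashed lines 1.5-fold. Pkp3 is the gene at or beyond a dashed line, and its bar crosses that line for Met-ENK against control.

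Against control, 1 of the 7 genes was past 1.5-fold with Met-ENK, where 6.72% of all 7519 filter-passing genes were, and 1 of 7 was with β-END(1-9), where 2.83% were. In both cases the gene was Pkp3, which was lower, as were 6.02% and 2.27% of filter-passing genes in these comparisons. A count of 1 among so few genes cannot be set apart from these shares. With Met-ENK the median difference over the 7 genes was 0.05, beside 0.00 over all filter-passing genes, with 4 genes above 0, 2 below and 1 equal (37.3% of all 15037 named genes were above 0 and 35.9% below, and 32.7% and 45.7% of filter-passing genes). With β-END(1-9) the median was -0.12, beside -0.03, with 6 genes below 0 and 1 equal (39.5% of named genes and 56.1% of filter-passing genes were below 0). After quantile normalization the β-END(1-9) median was -0.02, with 5 genes below 0. In that setting 39.6% of filter-passing genes were below 0, and with arrays centred on their medians 85.8% were, so the sign of small differences from control depends on the scaling.

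Between the peptides, given at the same dose for the same time, none of the 7 genes was past 1.5-fold (0 of 7), where 4.59% of filter-passing genes were. Dsg3 (0.44), Perp (0.37), Dsc3 (0.26), Pkp2 (0.17) and Pkp3 (0.09) were higher with Met-ENK, and Jup and Dsc2 were exactly equal. The median was 0.17, beside 0.00 over all filter-passing genes. Thus 5 of 7 genes were above 0, where 45.4% of filter-passing genes and 39.1% of all named genes were. Those shares were not matched for signal level, and the mean log2 signals of the 5 genes ran from 9.82 (Pkp3) to 17.4 (Perp). These 5 genes remained above 0 under all 4 alternatives, and the median then lay between 0.10 and 0.18, while the share of filter-passing genes above 0 ran from 44.8% to 68.3%, the latter with arrays centred on their medians. Met-ENK and β-END(1-9) share their first residues and differ in the added ones, and with 1 array each no interval can be given for their difference. The 7 genes were also chosen with it known that cell junction genes differed between the peptides. These values are thus not separate evidence for such a difference.

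**Figure D3:**
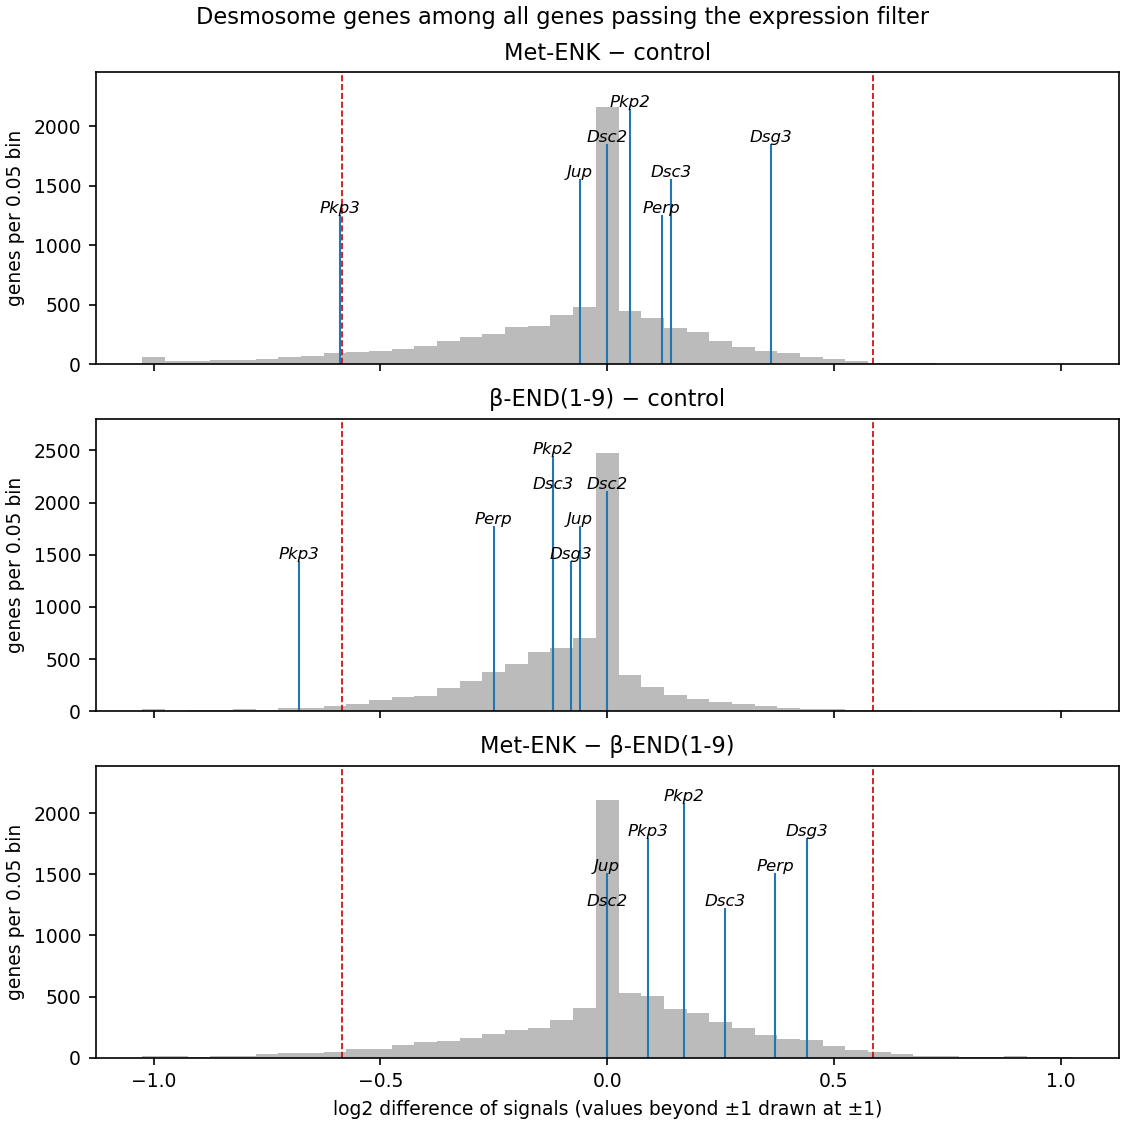
Histograms of the log2 differences of all 7519 filter-passing genes in the 3 comparisons, with blue lines at the values of the 7 desmosome genes and dashed lines at 1.5-fold. Between the peptides the lines lie at or to the right of 0, up to 0.44 for Dsg3, and against control the line of Pkp3 stands apart on the left.

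The differences that involve Met-ENK varied with genomic span, the distance from start to end of a gene. Among filter-passing genes, 28.1% of the shortest quintile of spans were higher with Met-ENK than with β-END(1-9), against 61.3% of the longest. Pkp2 spans 65.9 kb, Dsc3 34.0 kb, Dsc2 32.1 kb, Dsg3 31.6 kb, Jup 27.1 kb, Perp 12.4 kb and Pkp3 10.9 kb. Dsg3 and the desmocollins thus lie in the fourth quintile, where 54.9% of genes were higher with Met-ENK, and Perp and Pkp3 in the second, where 37.9% were. With the trend removed, Dsg3 was 0.39, Perp 0.37, Dsc3 0.21, Pkp3 0.10 and Pkp2 0.08 higher with Met-ENK than with β-END(1-9). Against control, 7.78% of genes in the second quintile were at least 1.5-fold lower with Met-ENK, as Pkp3 was, and 2.46% with β-END(1-9).

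**Figure D4:**
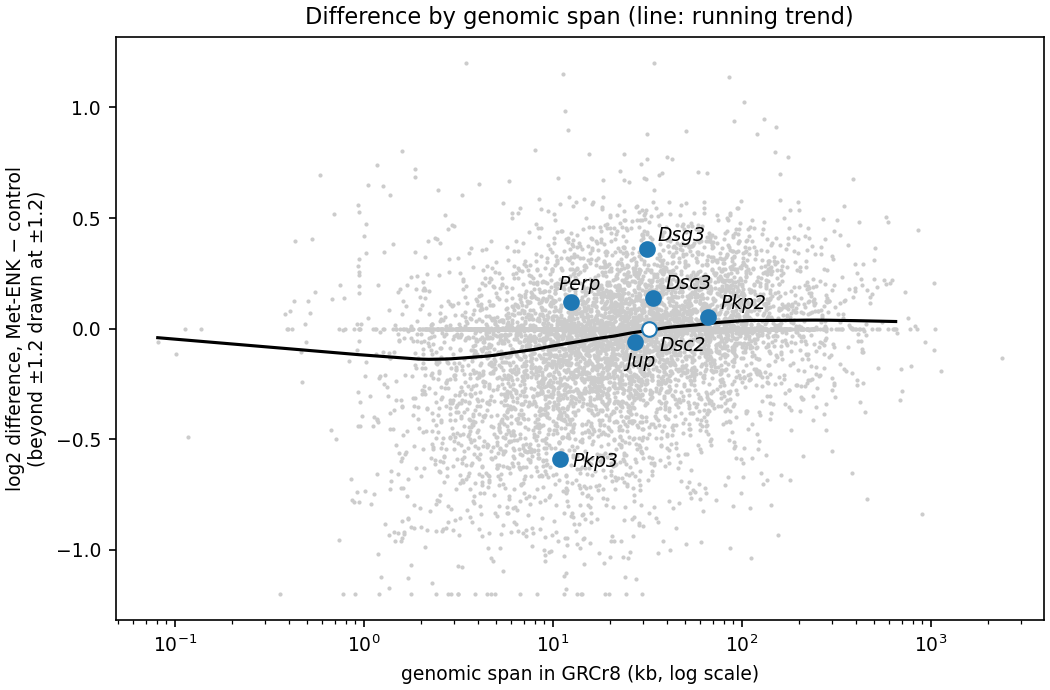
Log2 difference between the Met-ENK and control arrays against genomic span (log scale) for all filter-passing genes (grey) and the 7 desmosome genes (blue; open for Dsc2, which did not pass the filter), with the running trend as a line. Pkp3 (10.9 kb) and Perp (12.4 kb) have similar spans and lie on opposite sides of the line, at -0.59 and 0.12.

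Of the other desmosome genes listed, 5 of 12 were measured and 0 were past 1.5-fold in any comparison. Of filter-passing genes, 6.72% were with Met-ENK and 2.83% with β-END(1-9) against control, and 4.59% between the peptides. Envoplakin (Evpl) and periplakin (Ppl) are plakins that link desmosomes to the cornified envelope. Evpl had 9.15 on the control array and 8.90 on either peptide array, and Ppl had 13.61, 13.53 and 13.61 with control, β-END(1-9) and Met-ENK. Pnn, which encodes a desmosome-associated and nuclear protein, was exactly equal with control and β-END(1-9), at 13.64, and 0.45 higher with Met-ENK. Kazn, encoding the periplakin partner kazrin, was at background (5.44, 5.42 and 5.21). Dsp, Pkp1, Pkp4, Dsg1, Dsg2, Dsc1 and Cdsn were not analysed here.

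Of the keratins that desmosomes anchor, 8 of 13 were measured. Krt14, of the basal layer, had log2 signals of 16.70 in the control, 16.63 after β-END(1-9) and 16.61 after Met-ENK, and Krt17, a wound keratin, had 14.37, 14.32 and 14.21. Krt15, another basal keratin, was 12.80 in the control, 12.76 after β-END(1-9) and 12.23 after Met-ENK, a difference of -0.57 that fell just short of 1.5-fold. Krt1, of the suprabasal layers, was past 1.5-fold, at 0.99 higher with Met-ENK than with control and 0.86 higher than with β-END(1-9). It stayed within the background range (5.77 in the control, 5.89 after β-END(1-9) and 6.75 after Met-ENK). Of all named genes, 7.19% were past 1.5-fold with Met-ENK against control, and 5.56% between the peptides. Against control the list had a median of 0.00 for Met-ENK and -0.02 for β-END(1-9).

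Transcription factors known to act on desmosome or epithelial junction genes were measured for 10 of 16 listed. Tp63, which drives Perp in stratified epithelia, had 14.60 in the control, 14.33 after β-END(1-9) and 14.68 after Met-ENK. This order of arrays was that of Perp, but also that of Dsg3, Dsc3, Pkp2 and Cdh1, and a link was not tested. Grhl2, an activator of epithelial junction genes, had 11.67, 11.57 and 11.85 with control, β-END(1-9) and Met-ENK. Klf4, a factor of epidermal barrier formation, was the member past 1.5-fold, with 8.40 in the control, 7.81 after β-END(1-9) and 7.91 after Met-ENK (-0.59 and -0.49). With β-END(1-9), 1 of the 10 was thus past 1.5-fold, where 2.83% of filter-passing genes and 4.61% of all named genes were. A count of 1 cannot be set apart from these shares. The array order of Klf4 was that of Pkp3 and also of Klf5, and a link was not tested. Klf5, a factor of proliferating epithelia, differed by -0.25 and -0.20, and Snai2, a repressor of epithelial cadherins, by -0.17 and 0.01.

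Other junction genes are given beside the desmosome genes for the peptide comparison, with no test between lists. These lists, too, were chosen with it known that cell junction genes differed between the peptides. The median difference of Met-ENK from β-END(1-9) was 0.28 for 8 adherens junction genes, 0.20 for 5 hemidesmosome genes and 0.12 for 10 tight and gap junction genes, beside 0.17 for the 7 desmosome genes. In the adherens list 7 genes were above 0 and 0 below, among them Ctnnd1 (0.46), which encodes p120 catenin, the classical cadherin genes Cdh1 (0.36) and Cdh3 (0.26), and Ctnnb1 (0.09), which encodes β-catenin. Past 1.5-fold were 0 of these 8 genes, 0 of 5 hemidesmosome genes and 2 of 10 tight and gap junction genes, namely the scaffold gene Tjp1 (0.65) and the claudin gene Cldn7 (0.66), the latter within the background range. Between the peptides 4.59% of filter-passing genes were past 1.5-fold, and 5.56% of all named genes, since Cldn7 did not pass the filter. Above 0 were 45.4% of filter-passing genes, and 61.3% of those in the longest quintile of spans. The medians of these lists were not corrected for span.

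**Figure D5:**
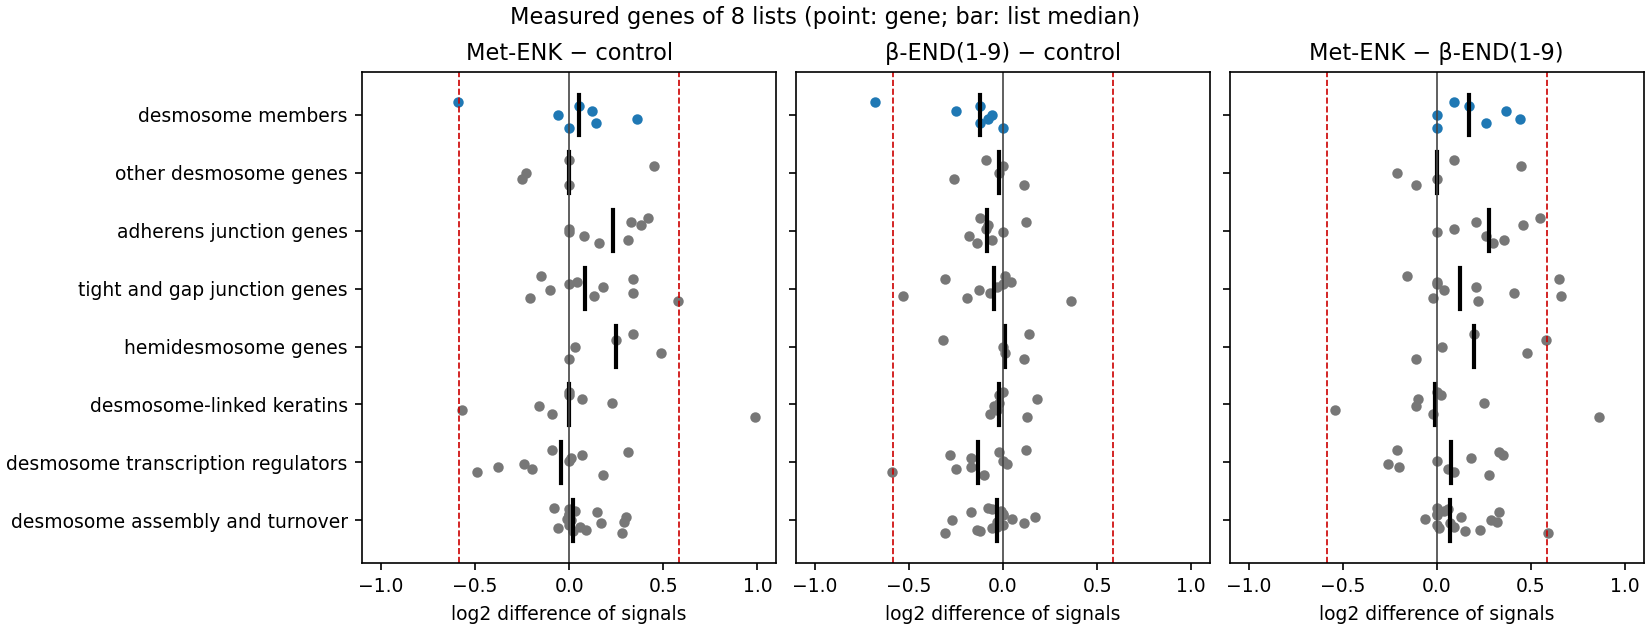
Log2 differences of the measured genes of the desmosome set (blue) and of 7 other lists (grey), 1 point per gene, with list medians as black bars and 1.5-fold as dashed lines. Between the peptides the desmosome median (0.17) lies between those of the tight and gap junction (0.12) and hemidesmosome lists (0.20).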

How the data were processed

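The authors deposited 1 log2 signal per probe set and array. Affymetrix Expression Console, Transcriptome Analysis Console and RMA are named in the submitters' processing notes; their versions, the annotation release and the build were not given in the sources used here. Of 24834 probe sets, 1646 controls were left out. The platform annotation named 15049 of 23188 transcript clusters with 1 symbol, and all 15049 gene identifiers were found in RefSeq's GRCr8 annotation. For genes with several probe sets the brightest was used. Groups came from the sample titles. Differences of log2 signals were computed in Python 3.11.15 and checked on simulated data; a gene past 1.5-fold (0.585) was counted. Trends along span were fitted by lowess (statsmodels 0.14.6, fraction 0.3) and cyclic loess with limma 3.58.1. Named genes were the 7 members, other listed genes past 1.5-fold or among the 4 brightest of their list, of which those that bear on the members are given, and the 3 genes most like Pkp3. The neighbours Cdh2, Dsg4, B4galnt4 and Sigirr were added after their values were seen. Members and lists were chosen with earlier results of these data known, including that cell junction genes differed between the peptides. Precision is limited by the number of arrays.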

Additional observations from a re-analysis of the deposited data

How the results depend on the processing

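The count of members past 1.5-fold with Met-ENK against control was 1 as deposited and when arrays were centred on their medians. It was 0 after quantile normalization, 0 after cyclic loess, 0 with the span trend removed, 2 at a lower limit of 0.32 (log2) and 0 at 2-fold. Under the 3 scalings and the span trend this turned on Pkp3 alone, whose value lay at the limit. With β-END(1-9) the count of 1 became 0 at 2-fold, and between the peptides the count of 0 became 2 at that lower limit. The β-END(1-9) median moved from -0.12 to -0.02 after quantile normalization; the cause was not tested. The other medians moved by no more than the median absolute difference between the 2 arrays over all filter-passing genes (0.115, 0.0877 and 0.119 in the order Met-ENK and β-END(1-9) against control, then between the peptides). Without the expression filter, 4.61% of genes in place of 2.83% were past 1.5-fold with β-END(1-9). Of 84 recomputed member differences, 76 counted as unchanged. For a difference past 1.5-fold this meant staying past it, and for any other a shift within those limits. Of the rest, 5 moved by more than those limits and 3 (all Pkp3 with Met-ENK) no longer passed 1.5-fold. Among called differences, 0 changed sign. The span trend for single members was added after seeing the data. No paired analysis was possible because each condition has 1 array. No replicate could be left out for the same reason.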

Other observations

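Genes for proteins that act on desmosome assembly and turnover were measured for 17 of 20 listed. Adam10, a protease that sheds junction cadherins, was the member past 1.5-fold, at 0.59 higher with Met-ENK than with β-END(1-9), and had log2 signals of 6.76 in the control, 6.45 after β-END(1-9) and 7.04 after Met-ENK, within the background range. Rhoa, the GTPase of actin contractility, had 17.35, 17.34 and 17.38 in that order, and Atp2a2, the calcium pump affected in Darier disease, in which desmosomes fail, had 16.18, 16.03 and 16.26. Gsk3b, a kinase gene of Wnt signalling, had 15.55, 15.52 and 15.84, and Iqgap1, a cytoskeletal scaffold gene, had 15.65, 15.38 and 15.66. Against control the list had a median of 0.02 for Met-ENK and -0.03 for β-END(1-9), and 0.07 between the peptides, with 12 genes above 0, 1 below and 4 equal. In the peptide comparison 45.4% of filter-passing genes were above 0 and 4.59% were past 1.5-fold. A count of 1 in this list cannot be set apart from the latter share.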
